A study of Pyrus communis with 12 samples.

Results

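Photosystem and chlorophyll-binding protein genes were followed in the skins of young fruits of a red pear sport and its green parent. The genes were taken from a deposited table of 42760 genes by the name of their protein domain alone, wherever that name holds "Chlorophyll a", "Photosystem" or "Oxygen-evolving". The rule found 89 genes. Of these, 54 carry the chlorophyll a/b binding protein domain of light-harvesting proteins, 15 encode parts of photosystem I, 16 encode parts or assembly factors of photosystem II, and 4 encode PsbO or PsbR, which sit at the oxygen-evolving side of photosystem II. PsbP and PsbQ, the other proteins of that side, have domain names that the rule does not take. Genes with the PsbP fold or a PsbQ-like domain, names that may cover other proteins too, are given further on as separate lists.

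The 12 libraries are from skins of European pear fruits of ‘Red Clapp Favorite’ (‘RCF’), a red bud sport, and of ‘Clapp Favorite’ (‘CF’), the cultivar it arose from. Skins were sampled from ‘RCF’ at 5 days after full bloom (DAFB) (‘RCF2’), from ‘CF’ at 5 DAFB (‘CF2’), from ‘RCF’ at 2 DAFB (‘RCF1’) and from ‘CF’ at 2 DAFB (‘CF1’), with 3 replicates each. Both cultivars were grafted on the same rootstock and grown in 1 orchard, and each cultivar is a single clone. Every replicate is a pool of the skins of many fruits, and RNA was selected by its poly(A) tail.

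Photosystems II and I are pigment-protein complexes of the thylakoid membrane that work in series: photosystem II takes electrons from water, and photosystem I passes them on for the reduction of NADP. Around each of them, antenna proteins of the chlorophyll a/b binding family gather light, and a manganese cluster on the inner side of photosystem II, shielded by PsbO, splits water. Antenna proteins and most small subunits are encoded in the nucleus, whereas the reaction-centre proteins PsaA, PsaB, PsbA (D1), PsbB and PsbD (D2) are encoded in the plastid. The skin of a young pear fruit is green tissue with working chloroplasts.

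Levels are given as FPKM, mapped fragments set in proportion to the length of each gene and the size of each library, so that levels may be set side by side between genes. Where 3 values of a group are given, they are those of replicates 1, 2 and 3 in that order. Fold changes are differences of mean log2(FPKM + 1), which understates changes of genes with low levels. The sum of FPKM over all genes ranged between 575131 and 636409 per library, and the table holds no counts of reads. Replicates of 1 group correlated across genes with r of 0.983 to 0.991 in ‘RCF2’, ‘CF2’ and ‘RCF1’. In ‘CF1’ they correlated less, with r of 0.964 between replicates 1 and 2, 0.911 between 1 and 3 and 0.844 between 2 and 3. Replicate 3 was thus in both of the lower pairs, and replicate 2 in the lowest. Replicate 3 had the lowest level of the 3 ‘CF1’ libraries in 52 of the 77 tested photosystem genes and the highest in 16. Replicate 1 of ‘RCF1’ had the lowest level of its group in 66 of the 77.

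Of the 89 genes, 77 reached 1 FPKM in 3 or more libraries and were tested, 8 were listed at 0 in all 12 libraries, and 4 were detected below that limit. The tested genes were 44 light-harvesting genes, 14 of photosystem I, 15 of photosystem II and the 4 PsbO and PsbR genes. Of the tested genes, 3 passed the limit only through libraries in which they are high and so had to differ: the light-harvesting gene PCP018862 through ‘CF1’, the light-harvesting gene PCP028639 through the 6 libraries of 2 DAFB, and PCP008734 of photosystem I through the 6 of 5 DAFB. Their calls in those contrasts are given as a description. The median of the mean levels of the tested genes was 61.0 FPKM, 63 genes averaged at least 10 FPKM and 24 averaged at least 100 FPKM. Their number is no count of proteins, since the domain name does not part antenna proteins from the stress-induced relatives that share it, and near-identical copies are common in the duplicated genome of pear.

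As a whole, these genes took a smaller share of the transcripts in the red sport at both stages. Summed over the 89 genes, the level was 6565 to 7312 FPKM in ‘RCF2’ (median 7209) and 9048 to 10183 FPKM in ‘CF2’ (median 9857). It was 5518 to 6863 FPKM in ‘RCF1’ (median 6258) and 7703 to 9102 FPKM in ‘CF1’ (median 8493). At neither stage did the libraries of the cultivars overlap, and the ratio of the means was 0.725 at 5 DAFB and 0.737 at 2 DAFB. As a share of all FPKM this was 1.13 to 1.25% in ‘RCF2’ and 1.54 to 1.77% in ‘CF2’, and 0.908 to 1.12% in ‘RCF1’ and 1.23 to 1.43% in ‘CF1’. The ratio at 2 DAFB leaned on 2 genes that were high in ‘CF1’, PCP018861 and PCP016593. Without them the sums were 4809 to 6094 FPKM in ‘RCF1’ and 5720 to 7254 FPKM in ‘CF1’, which overlap, with a ratio of 0.837, while the ratio at 5 DAFB stayed at 0.725. In RNA of whole skins, fewer green cells and less RNA of these genes per cell cannot be told apart.

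**Figure D1:**
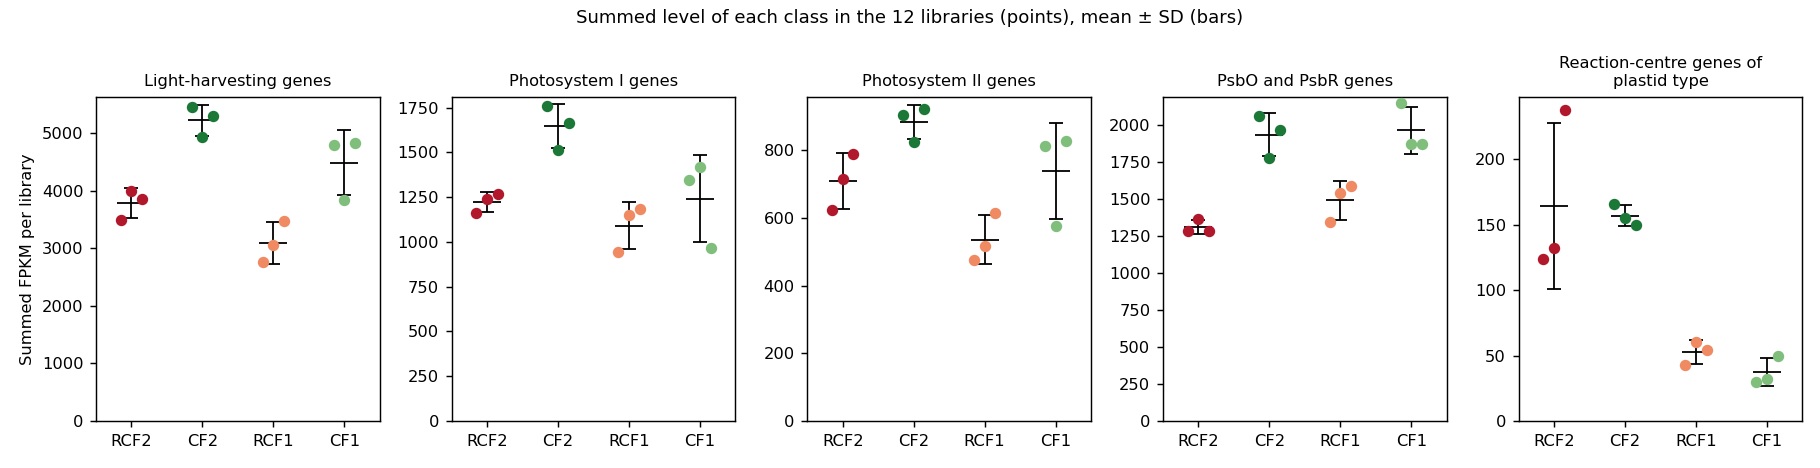
Summed FPKM of each class of photosystem genes (y axes, linear from 0) in each library (points) of ‘RCF2’, ‘CF2’, ‘RCF1’ and ‘CF1’, with the mean and SD of 3 replicates as bars. The ‘RCF2’ libraries lie below all ‘CF2’ libraries in the first 4 panels and not in the panel of reaction-centre genes of plastid type, where 1 ‘RCF2’ library at 238 FPKM lies above the rest.

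All 4 classes took part in the difference at 5 DAFB. The light-harvesting sum was 3496 to 3991 FPKM in ‘RCF2’ and 4927 to 5450 FPKM in ‘CF2’ (ratio of means 0.724). The photosystem I sum was 1159 to 1268 FPKM in ‘RCF2’ and 1516 to 1760 FPKM in ‘CF2’ (ratio 0.742). The photosystem II sum was 623 to 789.9 FPKM in ‘RCF2’ and 826 to 921 FPKM in ‘CF2’ (ratio 0.803). The 4 PsbO and PsbR genes summed to 1286 to 1365 FPKM in ‘RCF2’ and 1779 to 2067 FPKM in ‘CF2’ (ratio 0.678). In each class the highest ‘RCF2’ library was below the lowest ‘CF2’ library.

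‘RCF2’ vs. ‘CF2’ asks how the skins of the sport and its parent differ when the red colour appears. Small decreases ran through nearly the whole gene group, and none reached the fold limit of the study. A gene was called as a DEG where its limma P was under 0.05 and its log2 fold change was 1 or more in size, and by this rule 0 of the 77 genes were called, where 1.26% of all 25707 tested genes were. Without the fold limit, 58 genes were lower and 3 higher at an unadjusted P under 0.05, where 12.7% of all tested genes were lower and 11.7% higher. At a Benjamini-Hochberg adjusted P under 0.05, 35 were lower and 1 was higher, where 4.26% of all tested genes were lower and 4.31% higher. The median log2 fold change was -0.38 over the 77 genes, with a range of -0.79 to 0.54, and -0.01 over all tested genes. The fold change was below 0 in 68 of the 77, where this was so for 52.3% of all tested genes. In 58 all 3 ‘RCF2’ libraries lay below all 3 ‘CF2’ libraries and in 3 they lay above, where these shares over all tested genes were 15.9% and 14%. The number at an adjusted P depends on the fit: it was 4 with no filter on low levels, 21 with the replicate number as a block, 1 with the spread of all 12 libraries, and 7 to 27 with 1 library left out. It was 7 when ‘RCF2’ replicate 1 was left out, 11 for ‘RCF2’ replicate 3 or ‘CF2’ replicate 1, 18 for ‘RCF2’ replicate 2 and 23 for ‘CF2’ replicate 3. With no filter 0.946% of all genes in the fit were lower at an adjusted P, with the block 3.02% and with the spread of all 12 libraries 0.265%. With 1 library left out this share was 1.33 to 2.47%. The number below 0 was 61 of the 66 genes that passed a filter at 10 FPKM, and 67 to 69 under every other setting with all libraries.

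**Figure D2:**
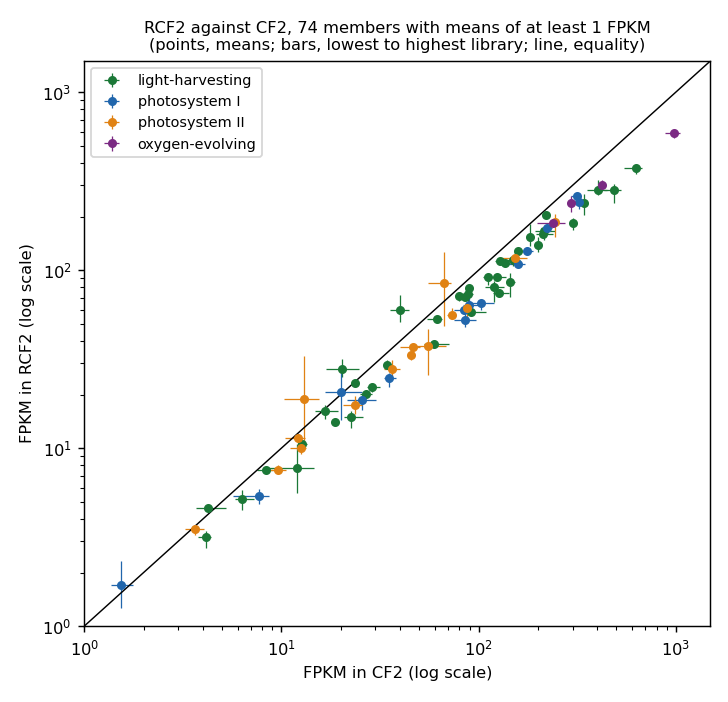
Mean FPKM in ‘RCF2’ (y axis, log scale) against ‘CF2’ (x axis, log scale) for the 74 tested genes with means of at least 1 FPKM in both, coloured by class; bars run from the lowest to the highest of 3 libraries and the line marks equal levels. Below the line lie 67 of the 74 genes, at all levels.

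Among the light-harvesting genes, 39 of 44 had a fold change below 0, 32 had all ‘RCF2’ libraries below all ‘CF2’ libraries, and 21 were lower at an adjusted P under 0.05. The gene with the second highest mean level of this class, PCP029098, had 348, 379.7 and 390.4 FPKM in ‘RCF2’ and 677, 548 and 665 FPKM in ‘CF2’. Its log2 fold change was -0.75 (SE 0.10), with an adjusted P of 0.0108, and the groups did not overlap. PCP008449, the third by level, had 238, 306 and 299.9 FPKM in ‘RCF2’ and 528, 432 and 502 FPKM in ‘CF2’. This was the largest decrease of the 77 genes (log2 fold change -0.79, SE 0.12, adjusted P 0.0142). PCP018861, the first by level, had 265, 323 and 263 FPKM in ‘RCF2’ and 356, 402 and 446 FPKM in ‘CF2’ (log2 fold change -0.50, SE 0.12, adjusted P 0.0418). PCP000701, annotated by the study as CP24, a minor antenna protein that links the outer antenna to photosystem II, had 38.3, 37.1 and 39.7 FPKM in ‘RCF2’ and 70.5, 53.96 and 53.1 FPKM in ‘CF2’. It was lower in every ‘RCF2’ library (log2 fold change -0.60, SE 0.11, adjusted P 0.0236). PCP024346, annotated by the study as an LHCB1 type, the main protein of the trimeric outer antenna, had 70.4, 96.4 and 91.0 FPKM in ‘RCF2’ and 153, 138 and 141 FPKM in ‘CF2’ (log2 fold change -0.75, SE 0.12, adjusted P 0.0152).

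In 3 light-harvesting genes, named here after their values were seen, all ‘RCF2’ libraries lay above all ‘CF2’ libraries. PCP026267 had 53.7, 73.0 and 51.5 FPKM in ‘RCF2’ and 35.5, 40.3 and 44.5 FPKM in ‘CF2’ (log2 fold change 0.54, SE 0.14, adjusted P 0.0622). PCP018455 had 26.7, 31.5 and 25.3 FPKM in ‘RCF2’ and 16.8, 24.7 and 19.5 FPKM in ‘CF2’ (0.45, SE 0.14, adjusted P 0.107). PCP001161 had about 1 FPKM, with 1.18, 1.304 and 0.985 FPKM in ‘RCF2’ and 0.498, 0.674 and 0.657 FPKM in ‘CF2’, and was the 1 gene higher at an adjusted P under 0.05 (0.42, SE 0.10, adjusted P 0.042).

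In photosystem I, 12 of 14 genes had a fold change below 0, 11 had groups that did not overlap with ‘RCF2’ lower, and 9 were lower at an adjusted P under 0.05. PCP026731, a PsaH gene and the highest of the class, had 255, 265 and 265 FPKM in ‘RCF2’ and 328, 293 and 325 FPKM in ‘CF2’. PsaH lies where the outer antenna docks on photosystem I. Its groups did not overlap, but the decrease missed the adjusted threshold (log2 fold change -0.27, SE 0.07, adjusted P 0.0622). PCP020159, for PsaD, which docks ferredoxin, had 222, 248 and 250.4 FPKM in ‘RCF2’ and 342, 306 and 318 FPKM in ‘CF2’ (-0.42, SE 0.08, adjusted P 0.0238). PCP000202, for PsaL, had 169, 173 and 173 FPKM in ‘RCF2’ and 234, 208 and 226 FPKM in ‘CF2’ (-0.37, SE 0.07, adjusted P 0.022). PCP007354, with the PsaG/PsaK domain and annotated by the study as reaction centre subunit V, had 58.4, 64.4 and 69.4 FPKM in ‘RCF2’ and 99.3, 83.5 and 87.0 FPKM in ‘CF2’ (-0.48, SE 0.09, adjusted P 0.0252). These 4 nuclear-encoded subunits were lower in each ‘RCF2’ library than in any ‘CF2’ library. Over the class the fold changes ran from -0.69 to 0.08, and the largest decrease was that of the second PsaD gene, PCP003858, named after its values were seen, with 48.2, 51.7 and 57.4 FPKM in ‘RCF2’ and 97.1, 75.3 and 83.4 FPKM in ‘CF2’ (-0.69, SE 0.11, adjusted P 0.0148). The 2 fold changes above 0 were those of the PsaA/PsaB genes.

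In photosystem II, 13 of 15 genes had a fold change below 0 and 11 had groups that did not overlap with ‘RCF2’ lower, and 3 passed the adjusted threshold. Those 3 were, named after their values were seen, a second PsbY gene, PCP008587 (-0.52, SE 0.09), a Psp29 gene, PCP007377 (-0.45, SE 0.07), and PCP036514 for Pbs27, an assembly factor of photosystem II (-0.39, SE 0.08). The highest of the class, PCP024214 for the small membrane protein PsbY, had 154, 198 and 208 FPKM in ‘RCF2’ and 252, 232 and 251 FPKM in ‘CF2’ (-0.40, SE 0.12, adjusted P 0.0818). PCP012912, for the small subunit PsbX, had 113, 122 and 114 FPKM in ‘RCF2’ and 153, 131 and 176 FPKM in ‘CF2’ (-0.39, SE 0.11, adjusted P 0.0717). Of the 2 genes for Psp29, a factor of photosystem II biogenesis, PCP016593 did not part the cultivars at 5 DAFB, with 10.6, 11.97 and 11.6 FPKM in ‘RCF2’ and 13.1, 10.5 and 12.8 FPKM in ‘CF2’ (-0.08, SE 0.10, adjusted P 0.681).

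All 4 PsbO and PsbR genes had lower levels in each ‘RCF2’ library than in any ‘CF2’ library, and 2 of them passed the adjusted threshold. PCP027351, for PsbR, a small lumen-side protein of photosystem II, had the highest mean of all 89 genes, 762 FPKM. It had 604, 607 and 553 FPKM in ‘RCF2’ and 1055, 881 and 1016 FPKM in ‘CF2’ (log2 fold change -0.74, SE 0.10, adjusted P 0.00935). PCP031098, for PsbO, had 281, 321 and 304 FPKM in ‘RCF2’ and 437, 407 and 419 FPKM in ‘CF2’ (-0.48, SE 0.08, adjusted P 0.0152). The second PsbR gene, PCP000965, had 188, 175 and 188 FPKM in ‘RCF2’ and 274, 199 and 242 FPKM in ‘CF2’ (-0.36, SE 0.12, adjusted P 0.104).

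Of the 6 genes for reaction-centre proteins that plants encode in the plastid, 5 were tested, and their direction at 5 DAFB rests on 1 library. They are 2 PsaA/PsaB genes, PsbA, PsbB, PsbD and a cytochrome b559 gene that was below the limit for testing. With all libraries 4 of the 5 had a fold change above 0, with a median of 0.08, and without ‘RCF2’ replicate 3 none had, with a median of -0.13. Leaving out any other library gave 3 or 4 above 0. PsbA (PCP014396) is the one below 0 with all libraries, at 39.6, 25.9 and 46.9 FPKM in ‘RCF2’ and 68.5, 48.3 and 48.6 FPKM in ‘CF2’ (-0.57, SE 0.23, adjusted P 0.177), and these groups did not overlap. The sum of the 6 genes was 124, 132 and 238 FPKM from the lowest to the highest ‘RCF2’ library, against 149.7 to 166 FPKM in ‘CF2’. The highest is replicate 3, and the other ‘RCF2’ libraries lay below all of ‘CF2’. Among the other tested genes 67 of 72 had a fold change below 0, with a median of -0.38. The table lists all 6 on scaffolds and does not say whether these are plastid sequences or nuclear copies of them. Since plastid RNA mostly lacks a poly(A) tail, these levels do not measure plastid transcripts.

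‘RCF1’ vs. ‘CF1’ asks the same before the colour differs to the eye. Only 3 of the 77 genes were called, all lower in ‘RCF1’ and all with the light-harvesting domain, where 2.89% of all tested genes were called and 1.87% were called lower. PCP018862 among them entered the test only through ‘CF1’. None of the 3 held after adjustment, where 0.0233% of all tested genes did. At an unadjusted P under 0.05 and with no fold limit, 6 genes were lower and 2 higher, where 5.72% of all tested genes were lower and 9.87% higher. The median log2 fold change was -0.04 over the 77 genes and 0.12 over all tested genes, and rescaling to TPM moved these medians to 0.02 and 0.18. In 11 genes all ‘RCF1’ libraries lay below all ‘CF1’ libraries and in 3 they lay above, where the shares over all tested genes were 8.79% and 20.4%. Left without ‘CF1’ replicate 3, the 77 genes had a median of -0.23 (0.03 over all genes), with 35 lower and 4 higher in groups that did not overlap, where the shares over all genes were 14.9% and 23.6%. With array weights, which give a library that stands apart less weight, 7 genes were called, 6 of them lower, and all 7 held after adjustment, where 5.53% of all tested genes were called and 5.53% held. In that fit 37 genes were lower and 6 higher at an adjusted P with no fold limit, where 23.9% of all tested genes were lower and 32.6% higher. Leaving out ‘RCF1’ replicate 1, ‘RCF1’ replicate 2 or ‘CF1’ replicate 1 left 1 call, where 1.74 to 2.29% of all tested genes were called. Without ‘RCF1’ replicate 1 the median was 0.06 over the 77 genes and 0.12 over all tested genes. The fold change was then below 0 in 34 of the 77, against 43 with all libraries. Without ‘CF1’ replicate 2 the median was 0.003 over the 77 genes and 0.17 over all tested genes. In that fit 4 genes were called, where 9.18% of all tested genes were.

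PCP028639 had 3.66, 2.28 and 1.78 FPKM in ‘RCF1’ and 30.2, 5.76 and 47.5 FPKM in ‘CF1’ (log2 fold change -2.64, SE 0.73, limma adjusted P 0.25). At 5 DAFB it was near 0, with 0, 0 and 0.0818 FPKM in ‘RCF2’ and 0 in all ‘CF2’ libraries. PCP018861 had 595, 426 and 661 FPKM in ‘RCF1’ and 1591, 682 and 2351 FPKM in ‘CF1’ (-1.31, SE 0.50, adjusted P 0.311). PCP018862 had 0.490, 0.464 and 0.954 FPKM in ‘RCF1’ and 3.96, 1.18 and 5.31 FPKM in ‘CF1’ (-1.33, SE 0.41, adjusted P 0.273). The call of PCP018861 held only without ‘CF1’ replicate 2, among the 6 fits with 1 library left out, and that of PCP018862 was lost without ‘RCF1’ replicate 1, ‘RCF1’ replicate 2 or ‘CF1’ replicate 1. All 3 genes, and the Psp29 gene PCP016593 with 113, 57.3 and 108 FPKM in ‘RCF1’ and 258, 76.6 and 422 FPKM in ‘CF1’ (-1.18, SE 0.66, adjusted P 0.375), were highest in ‘CF1’ replicate 3, next in replicate 1 and lowest in replicate 2. PCP018861 and PCP018862 are neighbours on scaffold02332, at scaffold02332:31676-32673 and scaffold02332:54616-55281, on the same strand with 21942 bases and 1 listed gene between them. PCP028639 lies at scaffold10418:516-1730 and PCP016593 at scaffold00271:180227-182797.

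In 8 genes the cultivars did not overlap at either stage and ‘RCF’ was lower at both, which held for 2.32% of all tested genes. The highest of them after PCP018861 is PCP029098, with 335, 363 and 392 FPKM in ‘RCF1’ and 608, 531 and 623 FPKM in ‘CF1’ (-0.69, SE 0.18, adjusted P 0.234). Its levels in each cultivar changed little with stage, by 0.04 in ‘RCF’ and 0.10 in ‘CF’ on the log2 scale. Also among them is the PsbO gene PCP031098, with 282, 323 and 341 FPKM in ‘RCF1’ and 391, 352 and 371 FPKM in ‘CF1’ (-0.24, SE 0.16, adjusted P 0.432). The others are PCP007377 for Psp29, PCP008587 for PsbY, PCP022520 for PsaN and the light-harvesting genes PCP044142 and PCP011656, named like the next gene after their values were seen. In 1 gene, PCP018455, ‘RCF’ was higher at both stages, as in 3.7% of all tested genes, with 18.1, 21.3 and 21.3 FPKM in ‘RCF1’ and 13.1, 15.9 and 10.1 FPKM in ‘CF1’ (0.62, SE 0.18, adjusted P 0.265).

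**Figure D3:**
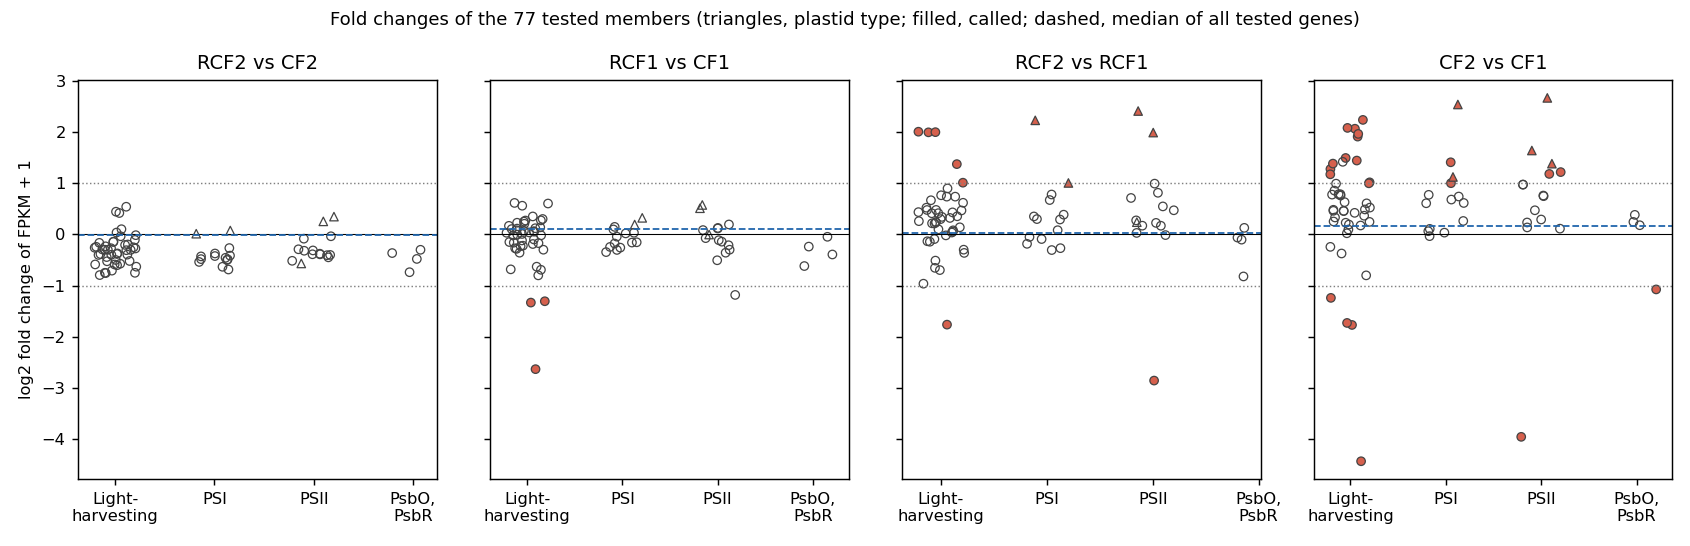
log2 fold changes of FPKM + 1 (y axis) of the 77 tested photosystem genes by class (x axis) in the 4 comparisons; filled symbols are called genes, triangles are genes of plastid type, and the dashed line is the median of all 25707 tested genes. In ‘RCF2’ vs. ‘CF2’ all points lie between -0.79 and 0.54, while both stage comparisons have called genes on both sides, 11 in ‘RCF’ and 27 in ‘CF’.

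Between 2 and 5 DAFB the photosystem genes were mostly higher at the later stage in both cultivars, and the calls in both took in 2 pairs of neighbouring light-harvesting genes and 4 genes of plastid type. In ‘RCF2’ vs. ‘RCF1’, 9 genes were called higher and 2 lower, and all 11 held after adjustment. Of all tested genes, 10.3% were called, 3.54% higher and 6.71% lower, and 10.2% held after adjustment. The median log2 fold change was 0.28 over the 77 genes and 0.02 over all tested genes. In 38 genes all ‘RCF2’ libraries lay above all ‘RCF1’ libraries and in 9 below, where the shares over all tested genes were 29.8% and 26.6%. In ‘CF2’ vs. ‘CF1’, 21 genes were called higher and 6 lower, of which 20 held after adjustment, where 17.1% of all tested genes were called, 7.23% higher and 9.91% lower, and 12.6% held. The median was 0.61 over the 77 genes and 0.16 over all tested genes, and rescaling to TPM moved these medians to 0.72 and 0.26. In 52 genes all ‘CF2’ libraries lay above all ‘CF1’ libraries and in 9 below, where the shares over all tested genes were 36.1% and 22.8%. Without ‘CF1’ replicate 3, 16 genes were called in ‘CF2’ vs. ‘CF1’, 12 higher and 4 lower, where 12% of all tested genes were called. The number that held after adjustment was 0 when ‘CF2’ replicate 2 was left out, 1 for ‘CF2’ replicate 1, 2 for ‘CF2’ replicate 3 and 7 for ‘CF1’ replicate 1, and it was 9 with the replicate number as a block. Of all tested genes, 0.0194%, 0.109%, 2.79%, 5.09% and 7.88% held in these fits, in that order. All 11 genes called in ‘RCF’ were called in ‘CF’ in the same direction. Over the table this was so for 74.5% of the 2636 genes called in ‘RCF’. Among the 11, PCP008734 entered the test only through 5 DAFB and PCP028639 only through 2 DAFB. For both genes the filter set the direction, so their agreement between cultivars is no result. The comparisons between cultivars and those between stages use the same libraries, so their fold changes are not separate measurements.

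The light-harvesting genes PCP021260 and PCP021261 lie side by side on scaffold00214, at scaffold00214:289755-290877 on the minus strand and scaffold00214:292106-295345 on the plus strand, so that they point away from each other with 1228 bases between them. PCP021260 had 204, 241 and 269 FPKM in ‘RCF2’ and 42.1, 63.9 and 74.0 FPKM in ‘RCF1’ (log2 fold change 2.00, SE 0.20, adjusted P 0.00018). In ‘CF’ it had 359, 328 and 337 FPKM in ‘CF2’ and 95.3, 93.3 and 40.5 FPKM in ‘CF1’ (2.24, SE 0.35, adjusted P 0.0138). The lower of its ‘CF1’ values is that of replicate 3. PCP021261 had 66.3, 87.4 and 86.4 FPKM in ‘RCF2’ and 12.1, 23.4 and 23.7 FPKM in ‘RCF1’ (2.01, SE 0.24, adjusted P 0.00044), and 134, 108 and 119 FPKM in ‘CF2’ and 42.9, 46.4 and 13.1 FPKM in ‘CF1’ (1.97, SE 0.47, adjusted P 0.0359).

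The same layout recurs on scaffold00116 with PCP024346, at scaffold00116:175866-176897 on the minus strand, and PCP024347, at scaffold00116:177816-179280 on the plus strand, with 918 bases between them. PCP024346, the LHCB1 type, had 70.4, 96.4 and 91.0 FPKM in ‘RCF2’ and 14.6, 24.0 and 24.4 FPKM in ‘RCF1’ (2.00, SE 0.20, adjusted P 0.00019), and 153, 138 and 141 FPKM in ‘CF2’ and 45.4, 45.4 and 18.0 FPKM in ‘CF1’ (2.07, SE 0.36, adjusted P 0.0181). PCP024347, named after its values were seen, had 168, 187 and 196 FPKM in ‘RCF2’ and 51.8, 73.3 and 90.2 FPKM in ‘RCF1’ (1.38, SE 0.18, adjusted P 0.000674), and 308, 297 and 297 FPKM in ‘CF2’ and 93.2, 103 and 50.9 FPKM in ‘CF1’ (1.92, SE 0.28, adjusted P 0.0124). In all 4 genes of both pairs every library of 5 DAFB lay above every library of 2 DAFB of its cultivar. No other listed gene lies within either pair. If members of a pair are near-identical in sequence, reads may have been divided between them.

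**Figure D4:**
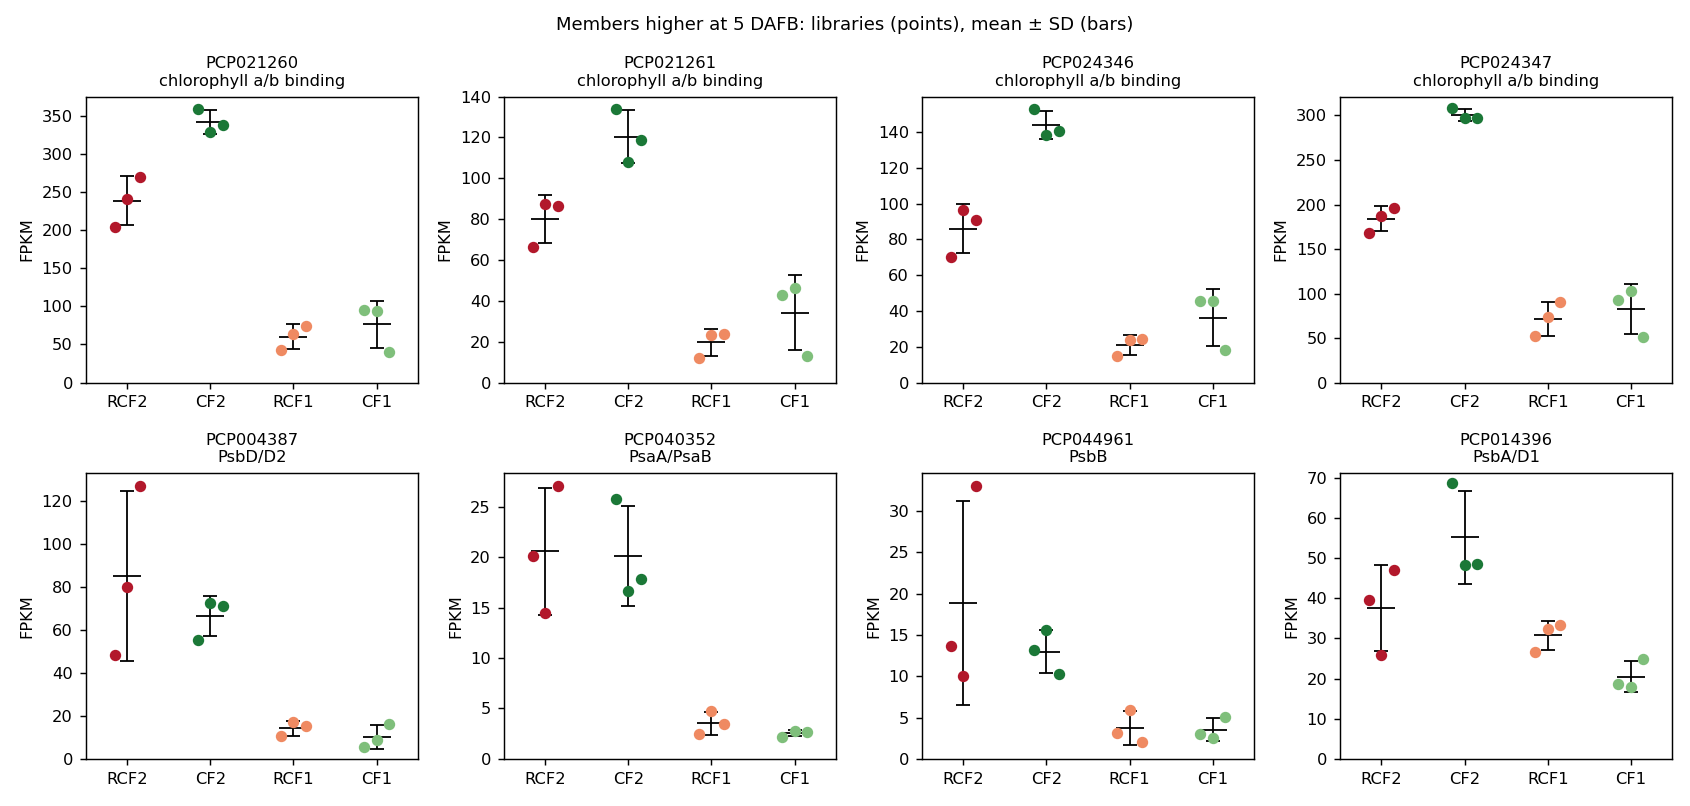
FPKM (y axes, linear from 0) in each library (points) of ‘RCF2’, ‘CF2’, ‘RCF1’ and ‘CF1’ for the 2 neighbouring pairs of light-harvesting genes (upper row) and 4 reaction-centre genes of plastid type (lower row), with the mean and SD of 3 replicates as bars. The upper genes have ‘RCF2’ between ‘CF2’ and the 2 DAFB groups, while in 3 of the lower genes ‘RCF2’ and ‘CF2’ overlap and PsbA is lower in ‘RCF2’.

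Of the 5 tested genes of plastid type, 4 were called higher at 5 DAFB in ‘RCF’ and 5 in ‘CF’, with medians of 2.00 in ‘RCF’ and 1.64 in ‘CF’ on the log2 scale. PCP008734 counts among both although it entered the test only through 5 DAFB. Their sum was 124 to 238 FPKM in ‘RCF2’ and 42.9 to 60.7 FPKM in ‘RCF1’, and it was 149.7 to 166 FPKM in ‘CF2’ and 29.7 to 49.4 FPKM in ‘CF1’. The means differed 3.12-fold in ‘RCF’ and 4.23-fold in ‘CF’. PCP004387, for PsbD, the D2 protein of the reaction centre core, had 48.3, 80.2 and 127 FPKM in ‘RCF2’ and 10.4, 17.0 and 15.3 FPKM in ‘RCF1’ (2.42, SE 0.32, adjusted P 0.000746). In ‘CF’ it had 55.6, 72.6 and 71.2 FPKM in ‘CF2’ and 5.76, 8.80 and 16.4 FPKM in ‘CF1’ (2.67, SE 0.35, adjusted P 0.0104). PCP040352, with the PsaA/PsaB site of the photosystem I core, had 20.2, 14.4 and 27.1 FPKM in ‘RCF2’ and 2.47, 4.72 and 3.44 FPKM in ‘RCF1’ (2.24, SE 0.24, adjusted P 0.000269), and 25.8, 16.7 and 17.8 FPKM in ‘CF2’ and 2.19, 2.79 and 2.69 FPKM in ‘CF1’ (2.55, SE 0.19, adjusted P 0.00592). PCP008734, with the same site and annotated by the study as PsaA, stayed low, with 1.55, 1.26 and 2.33 FPKM in ‘RCF2’ and 0.271, 0.362 and 0.357 FPKM in ‘RCF1’ (1.01, SE 0.16, adjusted P 0.00179), and 1.76, 1.49 and 1.37 FPKM in ‘CF2’ and 0.0897, 0.239 and 0.160 FPKM in ‘CF1’ (1.13, SE 0.13, adjusted P 0.00854). Without ‘RCF1’ replicate 1 or ‘RCF2’ replicate 3 its fold change in ‘RCF’ was below the limit, at 0.98 or 0.85. PCP044961 for PsbB, an inner antenna protein of photosystem II, named after its values were seen, had 13.6, 9.99 and 33.0 FPKM in ‘RCF2’ and 3.11, 5.98 and 2.01 FPKM in ‘RCF1’ (2.00, SE 0.44, adjusted P 0.00776). Replicate 3 was the highest ‘RCF2’ library in these 4 genes.

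PCP014396, for PsbA, the D1 protein, was the exception among them. It had 39.6, 25.9 and 46.9 FPKM in ‘RCF2’, 68.5, 48.3 and 48.6 FPKM in ‘CF2’, 26.6, 32.4 and 33.3 FPKM in ‘RCF1’ and 18.6, 17.8 and 24.8 FPKM in ‘CF1’. Its fold change between stages was 0.24 (SE 0.20) in ‘RCF’, with groups that overlapped (adjusted P 0.366), and 1.39 (SE 0.20) in ‘CF’ (adjusted P 0.0121).

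Another 12 genes, PCP014396 included, were called higher at 5 DAFB in ‘CF’ and not in ‘RCF’, where their fold changes were 0.24 to 0.996. Over all tested genes this share was 4.93%. PCP000701, the CP24 gene, had 38.3, 37.1 and 39.7 FPKM in ‘RCF2’ and 21.4, 31.1 and 33.5 FPKM in ‘RCF1’ (0.43, SE 0.15, adjusted P 0.0509), and 70.5, 53.96 and 53.1 FPKM in ‘CF2’ and 27.6, 30.1 and 12.3 FPKM in ‘CF1’ (1.39, SE 0.35, adjusted P 0.0391). PCP007354, with the PsaG/PsaK domain, had 58.4, 64.4 and 69.4 FPKM in ‘RCF2’ and 28.8, 37.9 and 45.2 FPKM in ‘RCF1’ (0.78, SE 0.15, adjusted P 0.00449), and 99.3, 83.5 and 87.0 FPKM in ‘CF2’ and 40.7, 42.8 and 20.5 FPKM in ‘CF1’ (1.41, SE 0.29, adjusted P 0.0257). Both genes were higher at 5 DAFB in every library of either cultivar. The fold changes were 0.9958 (SE 0.18) in ‘RCF’ and 1.19 (SE 0.26) in ‘CF’ for PsbY (PCP024214), 0.52 (SE 0.16) in ‘RCF’ and 1.02 (SE 0.29) in ‘CF’ for the light-harvesting gene PCP008449, and 0.67 (SE 0.11) in ‘RCF’ and 1.004 (SE 0.30) in ‘CF’ for PsaL (PCP000202). In these 5 genes ‘CF1’ replicate 3 was the lowest ‘CF1’ library, and without it the fold change in ‘CF’ was 0.9998 for PCP000701, 0.73 for PCP008449, 0.91 for PCP024214 and 0.67 for PCP000202. The calls of PCP008449 and PCP000202 were also lost without ‘CF2’ replicate 1 or ‘CF2’ replicate 3.

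The genes that fell by 5 DAFB include the light-harvesting gene with the highest level at 2 DAFB. PCP018861 had 356, 402 and 446 FPKM in ‘CF2’ and 1591, 682 and 2351 FPKM in ‘CF1’ (-1.77, SE 0.47, adjusted P 0.0442). In ‘RCF’ its fold change of -0.96 (SE 0.17) was just short of the limit, with an adjusted P of 0.00246. It averaged 1542 ± 836 FPKM in ‘CF1’ (SD, n = 3) and weighed heavily in the light-harvesting sum, which without it was 3231 to 3669 FPKM in ‘RCF2’, 4526 to 5094 FPKM in ‘CF2’, 2159 to 2811 FPKM in ‘RCF1’ and 2478 to 3203 FPKM in ‘CF1’. PCP028639 was called lower in both cultivars, with fold changes of -1.77 (SE 0.19) in ‘RCF’ (adjusted P 0.00027) and -4.44 (SE 0.70) in ‘CF’ (adjusted P 0.0144). These fitted values depend on the pseudocount, since the gene is listed at 0 in 5 of the 6 libraries of 5 DAFB.

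The Psp29 gene PCP016593 was also called lower in both, with 10.6, 11.97 and 11.6 FPKM in ‘RCF2’ and 113, 57.3 and 108 FPKM in ‘RCF1’ (-2.86, SE 0.23, adjusted P 7.65e-05). In ‘CF’ it had 13.1, 10.5 and 12.8 FPKM in ‘CF2’ and 258, 76.6 and 422 FPKM in ‘CF1’ (-3.96, SE 0.60, adjusted P 0.0132). Every library of 5 DAFB lay below every library of 2 DAFB. The second Psp29 gene, PCP007377, named after its values were seen, did not follow it, with fold changes of 0.17 (SE 0.08) in ‘RCF’ and 0.11 (SE 0.14) in ‘CF’. The PsbR gene PCP000965 had 188, 175 and 188 FPKM in ‘RCF2’ and 324, 303 and 348 FPKM in ‘RCF1’ (-0.82, SE 0.08, adjusted P 0.000141), and 274, 199 and 242 FPKM in ‘CF2’ and 572, 313 and 691 FPKM in ‘CF1’ (-1.08, SE 0.33, adjusted P 0.0619). Its call in ‘CF’ was lost with rescaling to TPM, with quantile normalization, and without ‘CF1’ replicate 1, ‘CF1’ replicate 3 or ‘CF2’ replicate 2. The other PsbR gene, PCP027351, did not change between stages beyond its spread, with fold changes of -0.10 (SE 0.11) in ‘RCF’ (adjusted P 0.471) and 0.25 (SE 0.27) in ‘CF’ (adjusted P 0.486).

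**Figure D5:**
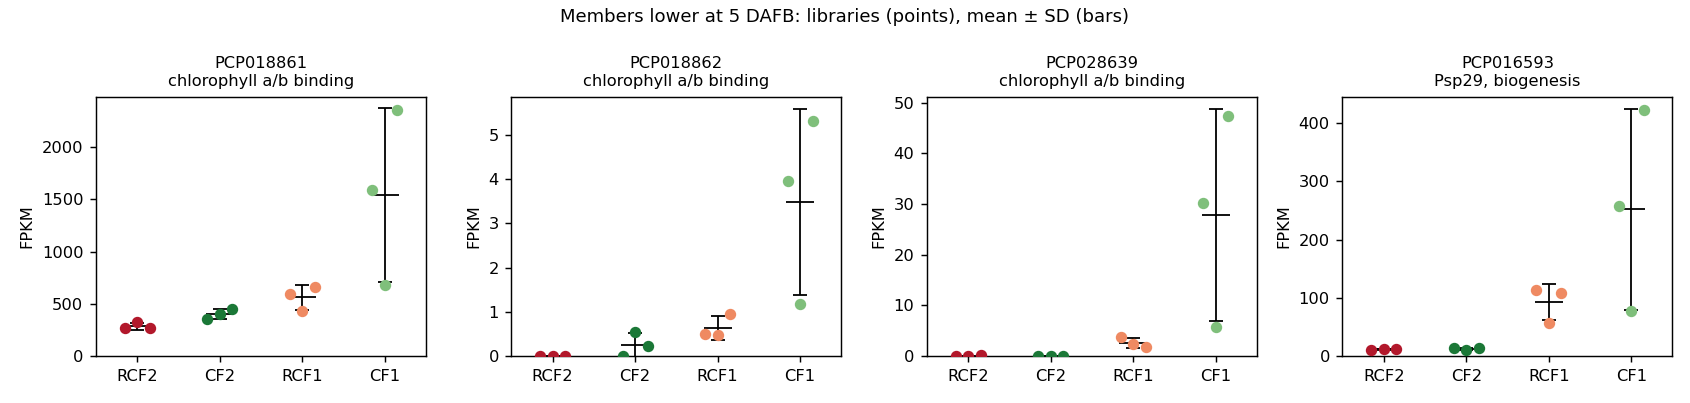
FPKM (y axes, linear from 0) in each library (points) of ‘RCF2’, ‘CF2’, ‘RCF1’ and ‘CF1’ for 3 light-harvesting genes and a Psp29 gene that were lower at 5 DAFB, with the mean and SD of 3 replicates as bars. The ‘CF1’ libraries lie above all ‘RCF1’ libraries in the first 3 panels and spread widely, with replicate 3 (right point) highest in each panel.

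The interaction term asks whether the change from 2 to 5 DAFB differs between the cultivars, as the change in ‘RCF’ minus that in ‘CF’. By P under 0.05 and an absolute value of at least 1, 2 of the 77 genes were called above 0 and 1 below, where 3.96% of all tested genes were called, 2.59% above and 1.37% below. None held after adjustment, and neither did any gene of the table. With array weights 4 were called and held, where 5.94% of all tested genes were called and 5.84% held. At an unadjusted P under 0.05 with no limit on size, 2 were above and 3 below 0, where 6.8% of all tested genes were above and 9% below. The value was 2.68 (SE 0.79) for PCP028639 with a limma adjusted P of 0.198, 1.03 (SE 0.47) for PCP018862 with 0.317, and -1.15 (SE 0.32) for the PsbA gene PCP014396 with 0.174. PCP028639 and PCP018862 were below 1 FPKM in all libraries of 5 DAFB, so that their values largely restate the difference between ‘RCF1’ and ‘CF1’. The median was -0.25 over the 77 genes and -0.12 over all tested genes. Of the 77 values 63 were below 0, where 62.1% of all tested genes were. Without ‘CF1’ replicate 3, 54 of the 77 were below 0, with a median of -0.12 and of -0.05 over all tested genes. With 1 library left out, PCP018862 kept its call only without ‘RCF1’ replicate 3, ‘CF1’ replicate 2 or ‘CF2’ replicate 2, and PCP014396 lost its own without ‘RCF2’ replicate 2 or ‘CF2’ replicate 1. The call of PCP018862 was also lost with a pseudocount of 0.1, with rescaling to TPM and with the replicate number as a block. Without ‘CF1’ replicate 2, 7 genes were called and 4 held after adjustment, where 11.2% of all tested genes were called and 7.04% held.

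Lists of other photosynthesis genes, taken by domain name, had fold changes mostly below 0 in ‘RCF2’ vs. ‘CF2’ as well. Over all tested genes, 52.3% were below 0 and 4.26% were lower at an adjusted P under 0.05. The alternative settings were not run for these lists, so how far their counts depend on the fit is not known. Of 15 tested genes of chlorophyll synthesis 13 had a fold change below 0 (median -0.14), and 2 were lower at an adjusted P under 0.05, among them a glutamyl-tRNA reductase gene, the first enzyme committed to tetrapyrroles. Of 10 genes of electron transport, for subunits of the cytochrome b6-f complex and of the plastid NAD(P)H-quinone oxidoreductase and for the thylakoid phosphoprotein TSP9, all 10 were below 0 (median -0.38) and 1 passed. Of 24 genes of carbon fixation 22 were below 0 (median -0.25) and 10 passed. Of 21 genes with the PsbP fold, a domain name that also lists Mog1, 19 were below 0 (median -0.24) and 4 passed. Of 11 PsbQ-like genes 9 were below 0 (median -0.28) and 2 passed. Called at the fold limit was 1 gene of these lists, where 1.26% of all tested genes were called. It was PCP018436, for the small chain of Rubisco, the enzyme that fixes CO2. This gene had 21.3 ± 1.85 FPKM in ‘RCF2’ and 47.2 ± 7.73 FPKM in ‘CF2’ (SD, n = 3 each), with a log2 fold change of -1.11. The most abundant small-chain gene, PCP011875, had 1454 ± 185 FPKM in ‘RCF2’ and 2111 ± 163 FPKM in ‘CF2’ (SD, n = 3 each, log2 fold change -0.54, limma adjusted P 0.0412). The carbon-fixation list also takes 7 tested genes with the domain of methyltransferases of the Rubisco large chain and 3 whose domain name covers uridine kinases.

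At 2 DAFB the same lists had medians of 0.20 (chlorophyll synthesis), -0.15 (electron transport), -0.03 (carbon fixation), 0.08 (PsbP fold) and 0.15 (PsbQ-like) in ‘RCF1’ vs. ‘CF1’, where all tested genes had 0.12. Only 1 of their genes was called there, where 2.89% of all tested genes were. It was a Rubisco small chain, PCP032736, higher in ‘RCF1’ at 74.6 ± 6.41 FPKM than in ‘CF1’ at 36.4 ± 3.88 FPKM (SD, n = 3 each). The 2 genes of these lists named for their calls, and PCP011875, were chosen after their values were seen.

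Markers of other tissues that young fruit skins could carry were read beside these results. The 6 genes of the cuticle list, which mark skin, summed to 150.3 to 199 FPKM in ‘RCF2’ and 187 to 235 FPKM in ‘CF2’, and to 194 to 204 FPKM in ‘RCF1’ and 189 to 239.9 FPKM in ‘CF1’, with none at 0 throughout. The 33 genes of the list for pollen and floral remnants, 4 of them at 0 in all libraries, summed to 3348 to 3559.9 FPKM in ‘RCF2’ and 3557 to 3629 FPKM in ‘CF2’, and to 2984 to 3569.8 FPKM in ‘RCF1’ and 2996 to 3366 FPKM in ‘CF1’. The 23 tested genes of this list all carry the domain name Pollen Ole e 1 allergen/extensin. That name also covers extensins, so these sums do not measure pollen or floral RNA. The 14 genes of the seed list, 3 of them at 0 in all libraries, summed to 7.34 to 9.91 FPKM in ‘RCF2’ and 13.5 to 15.6 FPKM in ‘CF2’, and to 7.58 to 8.62 FPKM in ‘RCF1’ and 18.5 to 25.4 FPKM in ‘CF1’. The seed sums thus stood lower in ‘RCF’ at both stages with no overlap, at levels far below those of the photosystem genes, and the part of other tissues in the results was not tested. No gene matched the phloem list.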

How the data were processed

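Skins of ‘RCF’ and ‘CF’ fruits at 5 and 2 DAFB were sequenced by the authors in 12 libraries, 3 independent replicates per group. The deposited values are FPKM computed by the authors. Per the submitters' processing notes, reads were trimmed with Trimmomatic 0.38, mapped with HISAT2 2.1.0 and assembled with StringTie 1.3.4d. The genome build and the treatment of reads that map to several copies are not given in the sources used here, so levels of near-identical genes are uncertain. The study names an apple genome, while the table lists PCP genes on scaffolds. The study gives totals of reads per library, but FPKM holds no counts per gene, so the DESeq test of the study, which needs counts, was not run.

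Genes that reached 1 FPKM in 3 or more libraries were tested on log2(FPKM + 1) with limma 3.58.1 (lmFit, eBayes with trend, two-sided) in R 4.3.3, each comparison on its own 6 libraries and the interaction on all 12. P values were adjusted by Benjamini-Hochberg over all 25707 tested genes. The fit was also run on simulated data in which each gene had the same spread in all groups. That simulation cannot speak for the wider spread of ‘CF1’. Tables and plots were made with pandas 2.3.3 and matplotlib 3.10.9 in Python 3.11.15.

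Genes named are the 3 with the highest mean in each class, those called between cultivars, up to 3 called with the largest and 3 with the smallest fold change in each comparison, and 4 that the study names. The photosystem genes and all lists were chosen with earlier results of these data known. The alternatives are given with their effect in the closing section. Counts at an adjusted P with no fold limit, counts without ‘CF1’ replicate 3 and the PsbP, PsbQ and Rubisco lists were added after the data were seen.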

Additional observations from a re-analysis of the deposited data

Results flagged for a closer look

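PCP014396, for the D1 protein of photosystem II (PsbA), stood out because the cultivars differed in opposite directions at the 2 stages, with groups that did not overlap at either. At 5 DAFB it had 39.6, 25.9 and 46.9 FPKM in ‘RCF2’ and 68.5, 48.3 and 48.6 FPKM in ‘CF2’ (log2 fold change -0.57). At 2 DAFB it had 26.6, 32.4 and 33.3 FPKM in ‘RCF1’ and 18.6, 17.8 and 24.8 FPKM in ‘CF1’ (log2 fold change 0.58). The interaction term was -1.15, with a limma adjusted P of 0.174, so the difference did not pass the correction.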

How the results depend on the processing

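In ‘RCF2’ vs. ‘CF2’, 0 genes were called under every alternative run, and the 35 genes lower at an adjusted P under 0.05 became 4 with no filter on low FPKM, 21 with the replicate block, 1 with 1 fit of all 12 libraries, and 7 to 27 with 1 library left out. The other alternatives gave 33 to 38. The share of all genes lower at an adjusted P was 0.946% with no filter, 3.02% with the block and 0.265% with 1 fit. It was 1.33 to 2.47% with 1 library left out and 3.66 to 6.79% in the other alternatives. In ‘RCF1’ vs. ‘CF1’ the 3 calls became 1 with a filter at an FPKM of 10, 7 with limma array weights, 0 at an adjusted P under 0.05, and 1 to 4 with 1 library left out. The interaction gave 1 call with the filter at an FPKM of 10, 0 at an adjusted P under 0.05, and 1 to 7 with 1 library left out. The calls of ‘RCF2’ vs. ‘RCF1’ numbered 9 to 13 with all libraries and 9 to 12 with 1 left out. Those of ‘CF2’ vs. ‘CF1’ numbered 19 to 30 with all libraries and 16 to 31 with 1 left out. The filter at an FPKM of 10 left out PCP028639 and PCP018862, which were called in both ‘RCF1’ vs. ‘CF1’ and the interaction. The cause of the other shifts was not tested.

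Of 27 named fold changes of 17 genes, 14 kept their call under every alternative that tested them, and none changed sign. The 14 include the stage comparisons of PCP028639 in ‘RCF’ and in ‘CF’, which the stricter filter on FPKM left untested. With the replicate number as a block, calls were 4 in ‘RCF1’ vs. ‘CF1’, 11 in ‘RCF2’ vs. ‘RCF1’, 27 in ‘CF2’ vs. ‘CF1’ and 2 for the interaction. Between cultivars, the deviations of same-numbered libraries correlated with r of 0.14, 0.20 and 0.05 at 5 DAFB and -0.18, 0.33 and -0.04 at 2 DAFB. Libraries of different numbers had r of -0.18 to 0.06 at 5 DAFB and -0.27 to 0.29 at 2 DAFB. Between stages, same-numbered libraries had r of -0.02 to 0.06. These values do not settle whether the numbers pair the samples. Without counts, the precision of genes at low FPKM could not be given. The ‘CF1’ replicates, with r of 0.844 to 0.964, spread more than those of the other groups.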
